A study of Solanum lycopersicum with 30 samples.

Results

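Intervein tissue, the leaf blade between the veins, was compared between tomato plants that had been rewatered after drought and plants that had been watered throughout. The comparison took the libraries labelled intervein at the last time point, T2, which were 6 of the 30 libraries measured. There were 3 from recovered plants and 3 from watered plants. The library labelled intervein T2 recovered 1 carried many vein transcripts, so recovered 2 and 3 were first compared with watered 1, 2 and 3, and recovered 1 was then added. The labels give the species as Solanum lycopersicum and name no cultivar, transgene or mutation. Recovered plants had gone 6 days without water and were then watered again, and per the growth protocol T2 followed 3 days after that return. The protocols do not settle how old the plants then were. T0, with watered plants alone, was taken 25 days after sowing, and T1, with droughted and watered plants, 29 days after sowing. Control plants received 150 mL every other day. The protocols describe 1 plant per library within a group. Leaf 4 was dissected into vein and intervein parts, and the intervein part is enriched rather than pure.

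Intervein tissue consists largely of mesophyll, where photosynthesis takes place, covered by epidermis with stomata. Under drought, tomato leaves accumulate abscisic acid, a hormone made from carotenoids that closes stomata and induces protective proteins such as dehydrins, while transcripts for photosynthesis usually decline. After rewatering, abscisic acid is broken down and much of the drought programme is reversed. The watered plants of T2 are the controls that the design names for the recovered ones.

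Total counts were 10905844, 9312380 and 6985531 in recovered 1, 2 and 3 and 2718799, 13641845 and 7964417 in watered 1, 2 and 3. Levels are given as CPM, the counts scaled to a common library size. They are not corrected for gene length, so they were compared between libraries and not between genes. A tissue score was taken as the mean log2 CPM of 699 genes that were higher in vein at T0 minus that of 852 genes that were higher in intervein at T0. It was -3.03 in recovered 2 and -3.13 in recovered 3, and -2.44, -3.11 and -2.91 in the watered libraries, while recovered 1 stood at 0.49. The watered mean was -2.82 ± 0.34 (SD, n = 3), and the recovered mean was -3.08 without recovered 1 and -1.89 with it. No test is given, because recovered 1 was left out for the vein transcripts that this score measures. Watered 3 was unlike watered 1 and 2 in another way. Of 13154 genes with a median of at least 5 CPM, it listed 712 at 0, against 106 and 111 in watered 1 and 2 and 8, 184 and 209 in recovered 1, 2 and 3.

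**Figure D1:**
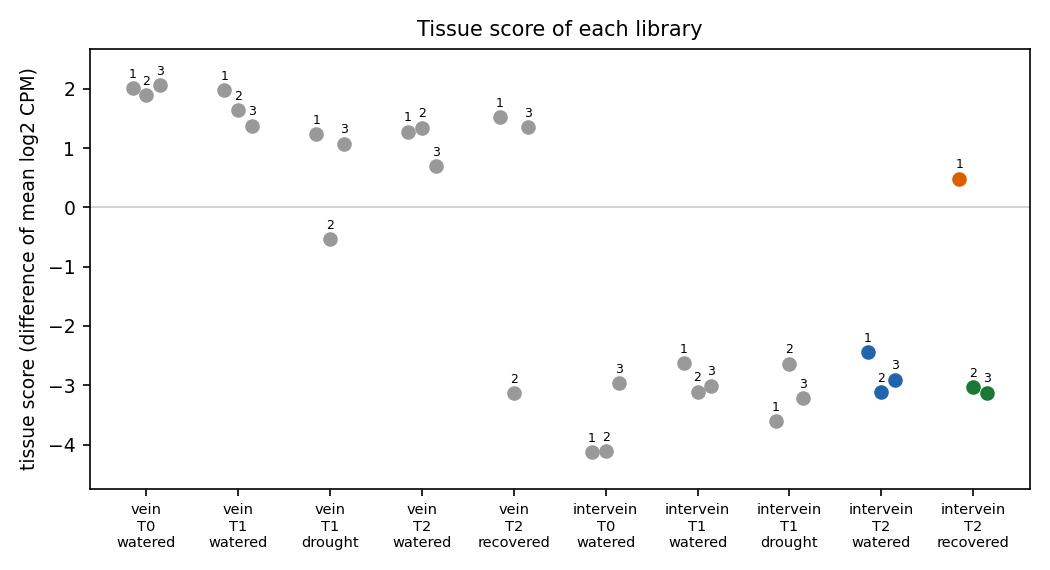
Tissue score of each of the 30 libraries (y axis, difference of mean log2 CPM between genes higher in vein and genes higher in intervein at T0), by group along the x axis, with replicate numbers above the points. Recovered 2 and 3 (green) lie among the watered intervein libraries (blue at T2), and recovered 1 (orange) lies at 0.49. The score of the T0 libraries is set by the choice of genes.

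Recovered and watered intervein tissue differed in 115 of 19893 genes tested (0.578%), 62 higher in recovered plants (0.312%) and 53 lower (0.266%), by edgeR's quasi-likelihood test at a Benjamini-Hochberg adjusted p under 0.05. Every one of the 115 differed by at least 2-fold. None of them was among the 159 non-coding RNA models tested, too few for that 0 to stand out at the overall share of 0.578%. Among those with counts in all 5 libraries, a set chosen after seeing the data, 50 were higher with a median log2 fold change of 2.17 and a range of 1.23 to 7.05, and 40 were lower with a median of -2.06. The values of recovered 2 and 3 lay above all 3 watered libraries for each of the 62 higher genes and below them for each of the 53 lower ones. Such separation was found in 17.9% and 14.1% of all tested genes. The 115 genes were called on these same 5 libraries, so their separation follows largely from that choice and is a description. At an unadjusted p under 0.05 there were 1673 higher and 1618 lower genes.

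The number of calls depended on which other libraries were in the fit, which also changed the genes tested, and that choice was made with earlier counts from these data known. The fit used 28 libraries of all groups, without recovered 1 and without the library labelled vein T2 recovered 2, whose tissue score of -3.14 was that of intervein. Vein T1 drought 2 was kept, although its score of -0.54 lay below the 1.24 and 1.08 of vein T1 drought 1 and 3. Its part in the count was not tested. With the library labelled vein T2 recovered 2 the count was 47, with the intervein libraries alone it was 10, and with the 5 compared libraries alone it was 0 (2362 genes at an unadjusted p under 0.05). It was 232 without intervein T1 drought 1, a setting added after seeing the data. DESeq2 called 1195 genes, which included all 115. Each compared library was also left out in turn. The count was 91, 48 and 29 when watered 1, 2 or 3 was left out. Leaving out recovered 2 or 3 leaves a single recovered library, so only effect sizes are given for those settings.

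**Figure D2:**
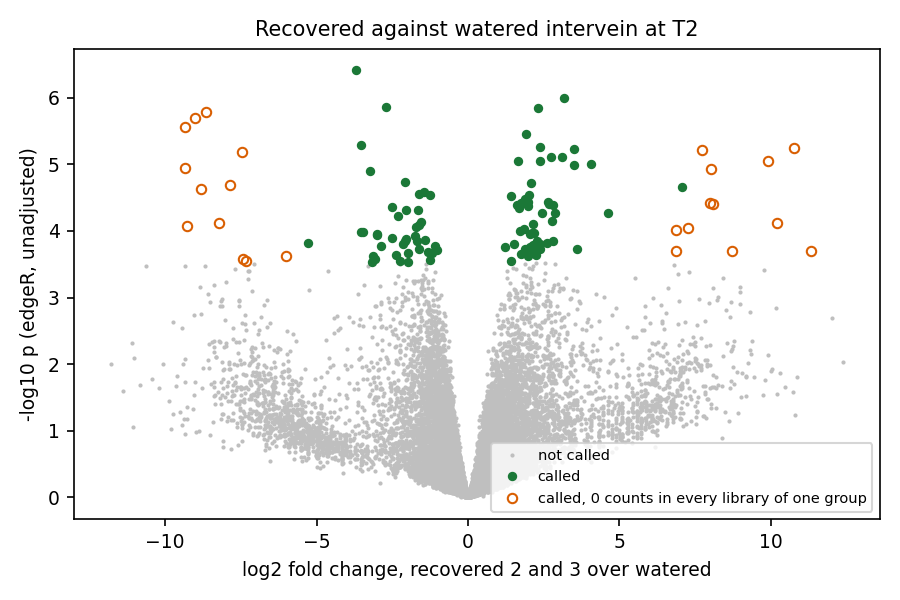
Log2 fold change of recovered 2 and 3 over the 3 watered intervein libraries (x axis) against -log10 of the unadjusted edgeR p-value (y axis) for the 19893 genes tested. Filled green points are called genes. Open orange circles are called genes with 0 counts in all 3 watered libraries or in both recovered 2 and recovered 3. Their fitted fold change depends on the prior count. The 62 higher and 53 lower calls lie on both sides at similar heights.

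The 2 largest fitted increases belonged to genes that were not detected in watered plants. The deposited table pairs these identifiers with protein database entries that carry no gene name here. Solyc02g085480 was at 15.5 and 36.4 CPM in recovered 2 and 3 and at 14.7 CPM in recovered 1, with 0 counts in each watered library. All 3 recovered libraries thus stood apart from the watered ones for this gene. It was at least 227-fold higher in recovered 2 and 3, against a floor of 3 counts over the watered group, and edgeR gave an adjusted p of 0.00921. Without watered 2 the bound was 96.2-fold. Solyc04g049340 was at 36.0 and 39.9 CPM in recovered 2 and 3, at 3.19 CPM in recovered 1 and at 0 in the watered group, at least 332-fold higher (edgeR adjusted p = 0.0411), with a bound of 141-fold without watered 2. Both genes were already expressed at T0, where intervein held 22.4, 16.9 and 1.36 CPM of Solyc02g085480 and 20.9, 12.7 and 0.973 CPM of Solyc04g049340. For Solyc02g085480 recovered 2 lay within that T0 range and recovered 3 above it, and for Solyc04g049340 both lay above it, while the watered T2 libraries were below it for both genes. The call of Solyc04g049340 was lost when any 1 of the 3 watered libraries was left out.

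The 2 largest fitted decreases were of the opposite kind, with 0 counts in recovered 2 and 3. Solyc02g086100 was at 10.3, 9.07 and 9.96 CPM in watered 1, 2 and 3, at least 44.1-fold lower in recovered 2 and 3 (adjusted p = 0.0102 by edgeR), or at least 20.7-fold without recovered 2. Solyc04g008880 was at 8.47, 6.55 and 14 CPM in the watered libraries and at least 43.5-fold lower (adjusted p = 0.00787 by edgeR), or at least 20.4-fold without recovered 2. Recovered 1 did not share these zeros. It held 7.24 CPM of Solyc02g086100, below the watered range, and 7.93 CPM of Solyc04g008880, within it, so that with recovered 1 added both fell short of a call (adjusted p = 0.356 and 0.377 by edgeR). Leaving out recovered 2 or 3 leaves a single recovered library, so no adjusted p is given for those settings.

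Zeros of this sort made up 24 calls, 12 higher genes at 0 in all watered libraries and 12 lower genes at 0 in recovered 2 and 3. All 24 had counts in recovered 1 and in every intervein library at T0. Zeros at expressed genes also occurred elsewhere, since 2263 of the 13154 genes with a median of at least 5 CPM were at 0 in at least 1 of the 28 libraries. They were spread unevenly, with 1394 in intervein T1 drought 1 and 712 in watered 3. Watered 1 and 2 had 106 and 111, and recovered 2 and 3 had 184 and 209. The count of 2263 is no measure of how often a whole group is at 0. A zero can be a failed estimate, and its part in these 24 calls was not tested.

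Among called genes with counts in all 5 libraries, the 2 with the largest differences in each direction were looked up after their values were seen. Solyc06g011470 was at 48.2 and 31.7 CPM in recovered 2 and 3 and at 40.4 CPM in recovered 1, against 0.627, 0.0662 and 0.378 CPM in watered 1, 2 and 3. Every recovered library exceeded every watered one, and the log2 fold change was 7.05 ± 1.31 (SE, adjusted p = 0.0155 by edgeR). That call was lost without watered 2 or watered 3 (adjusted p = 0.0745 and 0.0685 by edgeR), with a log2 fold change of 6.35 without watered 2. Solyc03g120980 had 538, 559.5 and 576 CPM in recovered 1, 2 and 3 and 39.2, 8.34 and 21.8 CPM in the watered libraries, a log2 fold change of 4.63 ± 0.92 (SE, adjusted p = 0.0212 by edgeR). Its call was also lost without watered 2 or watered 3 (adjusted p = 0.0904 and 0.0865 by edgeR), and its log2 fold change was 5.24 without watered 1. The recovered libraries were close to each other for this gene, and its T0 levels of 333, 175 and 88.9 CPM lay between the groups. Vein was taken from the same set of plants per the protocol. In vein Solyc03g120980 was at 356 and 689.7 CPM in recovered 1 and 3. It was at 39.9, 41.8 and 27.2 CPM in the watered vein libraries, again without overlap. With vein recovered 2 left out, it was not called in vein (adjusted p = 0.136 by edgeR).

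Solyc02g063280 was lower, at 1.26 CPM in both recovered 2 and recovered 3 against 22, 13.1 and 15.1 CPM in watered 1, 2 and 3 (log2 fold change -3.71 ± 0.52, SE, adjusted p = 0.00641 by edgeR). Solyc03g116380 was at 2.23 and 2.52 CPM against 29.5, 31.0 and 21.8 CPM (log2 fold change -3.52 ± 0.74, SE, adjusted p = 0.0312). Recovered 1 lay nearer to the watered libraries for both, with 8.02 and 17.2 CPM, still below each of them. With it in the test the log2 fold changes were -2.21 and -1.89, with edgeR adjusted p-values of 0.054 and 0.167. The call of Solyc03g116380 was also lost when any 1 watered library was left out. The T0 levels of 9.78 to 25.9 CPM and 12.5 to 36.3 CPM covered the watered T2 values for Solyc02g063280 and Solyc03g116380. Recovered 2 and 3 lay below the T0 range for both genes, and recovered 1 lay below it for Solyc02g063280 and within it for Solyc03g116380.

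Recovered 1 was not used in choosing the 115 genes, although the watered libraries are shared. Whether it was exchanged or mixed with the library labelled vein T2 recovered 2, which scored like intervein, was not tested, so it may not stand for a plant apart from recovered 2. It lay above all 3 watered libraries for 61 of the 62 higher genes, where 35.7% of all tested genes did so. The 62 genes were chosen for low values in the same watered libraries, so that share is not the value to expect of them without a change, and these counts are a description. The exception was Solyc03g007220, named after its values were seen, for which recovered 1 was within the watered range. Of the 53 lower genes 37 were below all watered libraries in recovered 1, 11 were within their range and 5 were above, and 22.9% of all tested genes were below. With counts in all 5 libraries required, 49 of 50 higher genes were above and 33 of 40 lower genes were below. Recovered 1 also carried the excess of vein transcripts, whose part in these values was not tested.

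**Figure D3:**
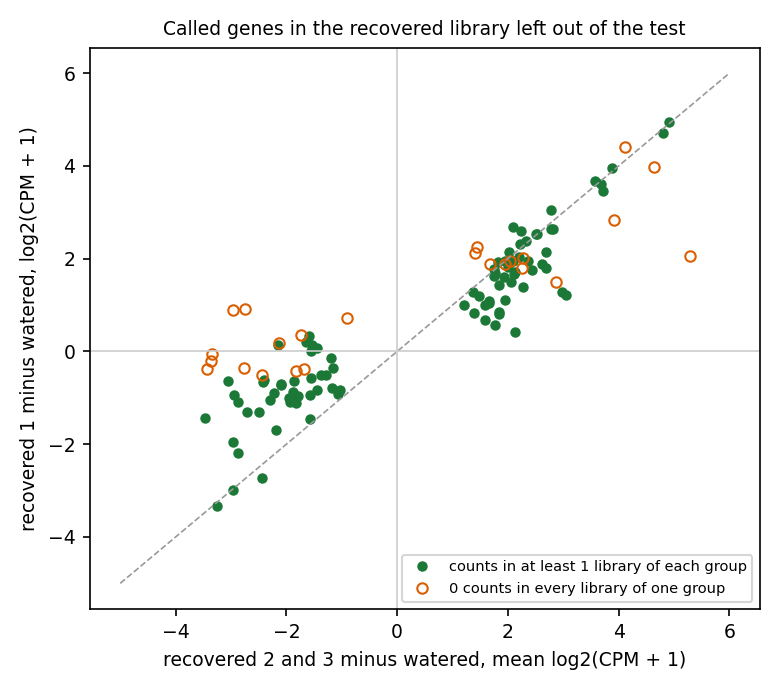
The 115 called genes, with the difference of recovered 2 and 3 from the watered mean on the x axis and that of recovered 1, the library left out of the test, on the y axis, both as log2(CPM + 1). Open orange circles are genes with 0 counts in all 3 watered libraries or in both recovered 2 and recovered 3. The dashed line marks equal differences. For 61 of 62 higher genes recovered 1 is above all watered libraries, and lower genes lie less far from 0 on the y axis than on the x axis where recovered 2 and 3 had 0 counts.

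With recovered 1 in the test, 3 libraries against 3, 189 of 19956 genes were called (0.947%), 138 higher (0.692%) and 51 lower (0.256%). They included 60 of the 62 higher and 17 of the 53 lower genes called without it. The median log2 fold change of all genes was then 0.11. The vein-preferred genes, the 699 of the tissue score, had a median of 1.07 with recovered 1 and of 0 without it. Their calls were few in both settings, 5 higher (0.715%) and 0 lower with recovered 1, a share near that of all genes, and 1 in each direction (0.143%) without it. The intervein-preferred genes had a median of 0.15 with recovered 1 and 0.44 without it, with 2 of 852 called in each direction in the former case and 1 higher and 0 lower in the latter. In bulk tissue, fewer cells of a type and less RNA per cell cannot be told apart in such medians.

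Genes that drought had changed at T1 were then followed to T2. Drought changed 1244 genes in intervein at T1 (6.25% of those tested by edgeR), 512 higher (2.57%) and 732 lower (3.68%). The T1 libraries are not among those compared at T2, but both comparisons came from the same fit and share its estimate of spread for each gene. A gene with a low estimate is more easily called in both, and the part of this in the shares below was not tested. Of the 732 drought-lowered genes, 17 were higher in recovered plants (2.32%) and 1 was lower, with a median log2 fold change of 0.66. Of the 512 drought-raised genes, 12 were lower (2.34%) and 0 were higher, with a median of -0.41. Over all tested genes the shares were 0.312% and 0.266% and the median was 0. With recovered 1 in the test, 26 drought-lowered genes were called higher (3.55%) and 0 lower, and of the drought-raised genes 8 were called lower (1.56%) and 2 higher (0.391%), with medians of 0.70 and -0.36.

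Library by library, the median difference of the drought-lowered genes from the watered T2 mean was 0.65, 0.76 and 0.65 log2 units in recovered 1, 2 and 3 and 0.26, 0.05 and -0.26 in watered 1, 2 and 3. The groups did not overlap. For the drought-raised genes it was -0.45, -0.36 and -0.31 in the recovered libraries and -0.30, -0.09 and 0.40 in the watered ones, so that recovered 3 and watered 1 nearly met. Watered 3 stood highest for the raised and lowest for the lowered genes among the watered libraries. Without it the medians of the log2 fold changes were -0.19 for the raised and 0.50 for the lowered genes. Among the T1 libraries, intervein T1 drought 1 listed 1394 of the 13154 genes with a median of at least 5 CPM at 0. Its part in which genes entered these lists was not tested.

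**Figure D4:**
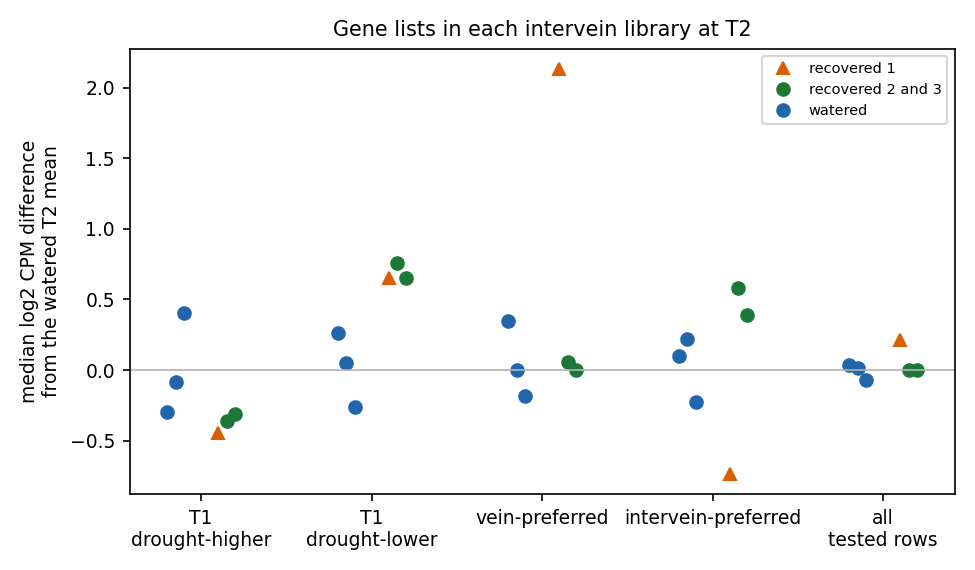
Median log2 CPM difference from the mean of the 3 watered T2 libraries (y axis) for genes raised or lowered by drought at T1, for vein-preferred and intervein-preferred genes, and for all genes tested (x axis), in each intervein library at T2. Recovered libraries lie at 0.65 to 0.76 for drought-lowered genes and watered ones at -0.26 to 0.26, and recovered 1 (orange triangle) stands apart for the tissue lists.

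Some of the drought programme can be described through well studied tomato genes. The files give no gene names, and 28 genes were named by the UniProt entry that the deposited table pairs with the identifier. The step from entry to name is general knowledge and not part of the files. The chromosome in each identifier was that of the same symbol in RefSeq's table for all 28. These genes were picked partly with values in view, and none of the 28 passed the test in recovered 2 and 3 against watered. Over all tested genes 0.578% passed, a share too low for 0 of 28 to stand out.

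The 11 photosynthesis genes comprised Rubisco small subunits, chlorophyll-binding proteins, photosystem subunits and plastocyanin. Of these, 0 passed the test in either direction (smallest adjusted p = 0.198 by edgeR), and 2 were at an unadjusted p under 0.05, as were 3291 of the 19893 genes tested. At the overall share of 0.578% called, 11 genes are too few for that 0 to stand out. The log2 fold change was above 0 for 10 of 11 and below 0 for 1, where 52.7% of all tested genes were below 0, and the median was 1.52 against 0 over all genes. Together they held 33240, 130000 and 81040 CPM in recovered 1, 2 and 3 and 45470, 35520 and 30480 CPM in watered 1, 2 and 3. Recovered 2 and 3 thus stood above the watered libraries, and recovered 1 was within their range. At T0 the same sum was 221100, 172000 and 29660 CPM, so the watered intervein libraries of T0 themselves differed by more than the groups at T2.

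Among Rubisco small subunits, the nuclear-encoded part of the carbon-fixing enzyme, RBCS4 (Solyc02g085950) was at 16792, 57129 and 35521 CPM in recovered 1, 2 and 3 and at 20707, 12805 and 5678 CPM in watered 1, 2 and 3. Recovered 2 and 3 exceeded all watered libraries, and the log2 fold change was 1.83 ± 1.14 (SE, adjusted p = 0.422 by edgeR). The 2 other subunit genes, rbcS1 (Solyc02g063150) and RBCS-2A (Solyc03g034220), had log2 fold changes of 2.07 ± 1.02 and 1.52 ± 0.89 (SE), and the first was 1.04 without recovered 2. These genes have near-identical copies, and the sources used here do not say how reads shared between copies were counted, which leaves the split among them uncertain.

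The highest photosynthesis fold change was that of CAB-10B (Solyc01g105050), an antenna protein of photosystem II that binds chlorophyll. It was at 289.8, 1329 and 550.1 CPM in recovered 1, 2 and 3 and at 108, 217 and 128 CPM in the watered libraries, a log2 fold change of 2.64 ± 1.00 (SE, adjusted p = 0.198 by edgeR), or 1.86 without recovered 2. It was the 1 photosynthesis gene of the 11 for which recovered 1 also stood above all watered libraries. The related CAB-10A (Solyc01g105030) had 90.4 and 102 CPM in recovered 2 and 3, within the watered range of 31.7 to 221 CPM, and a log2 fold change of -0.38 ± 0.95 (SE), which was 0.25 without watered 3. PSBO (Solyc02g065400), a protein of the oxygen-evolving complex, was at 4796 and 3190.1 CPM in recovered 2 and 3 against 1140.4, 1680.0 and 1455 CPM in the watered libraries, and recovered 1 was below them at 1109 CPM. Its log2 fold change was 1.49 ± 0.68 (SE, adjusted p = 0.275). PSBR (Solyc07g066310), another protein of photosystem II, overlapped between groups, with 14842 and 12630.0 CPM in recovered 2 and 3 and up to 13206 CPM in watered 3.

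**Figure D5:**
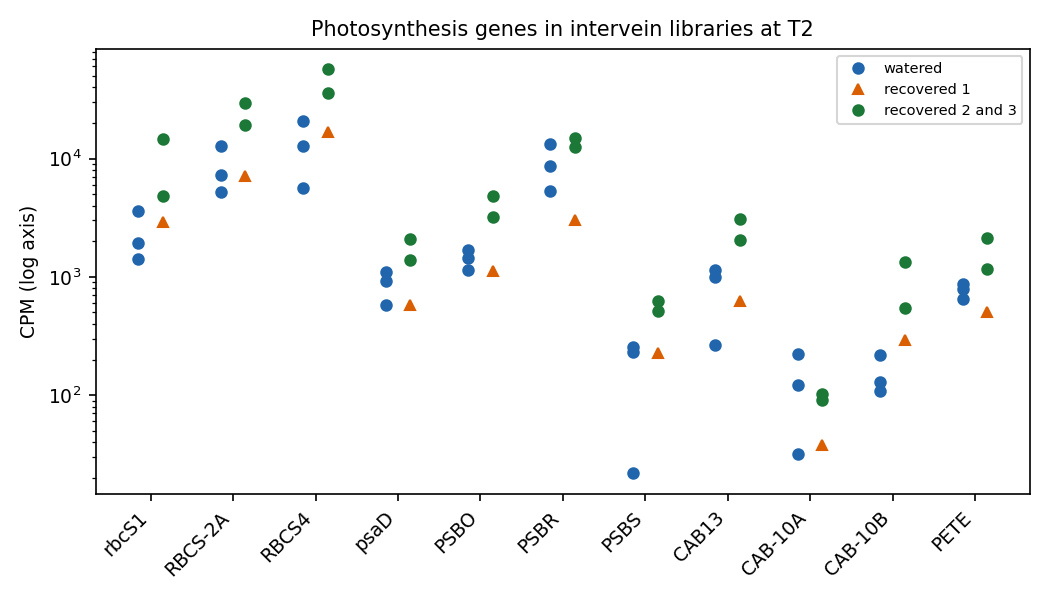
CPM (log axis) of 11 photosynthesis genes in the intervein libraries at T2, with watered libraries in blue, recovered 2 and 3 in green and recovered 1 as orange triangles. Recovered 2 and 3 lie above all watered libraries for 9 of the 11 genes (17.9% of all tested genes do), and recovered 1 does so for 1 gene (35.7% of all tested genes do), is within the watered range for 6 and below it for 4. None of the 11 passed the test (0.578% of all tested genes did).

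The other 17 named genes act in hormone synthesis, water stress and defence. Again 0 passed the test, with 7 log2 fold changes above 0 and 10 below, where 52.7% of all tested genes were below 0. At the overall share of 0.578% called, 17 genes are too few for that 0 to stand out. NCED1 (Solyc07g056570), the rate-limiting enzyme of abscisic acid synthesis, was at 3.77 and 6.31 CPM in recovered 2 and 3 and at 31.4, 29.7 and 20.2 CPM in watered 1, 2 and 3. Recovered 1, at 24.9 CPM, lay within the watered range. The log2 fold change of recovered 2 and 3 over watered was -2.42 ± 0.79 (SE, adjusted p = 0.146 by edgeR), and with recovered 1 it was -1.20 (adjusted p = 0.376). DESeq2, which called 1195 genes where edgeR called 115, gave the difference without recovered 1 an adjusted p of 0.0266. T0 levels were 28, 48.1 and 66.7 CPM. Psy1 (Solyc03g031860) and PDS (Solyc03g123760), which act earlier in the carotenoid pathway, overlapped between the groups.

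TAS14 (Solyc02g084850), a dehydrin, was at 135, 88.5 and 40.2 CPM in recovered 1, 2 and 3 and at 82.5, 63.5 and 469 CPM in watered 1, 2 and 3. The groups overlapped, and watered 3 was the highest. LE25 (Solyc10g078770), a late embryogenesis abundant protein, was at 0.517 CPM in recovered 1 and at 0 in recovered 2 and 3, against 0.941, 1.85 and 6.56 CPM in the watered libraries, with watered 3 again highest. At T1 both had been called higher under drought in intervein, with adjusted p-values of 0.0202 and 0.0186 by edgeR.

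OPR3 (Solyc07g007870), an enzyme of jasmonic acid synthesis, came closest to the threshold among the 28. It was at 290.4, 418 and 196 CPM in recovered 1, 2 and 3 and at 91.6, 78.4 and 77.7 CPM in watered 1, 2 and 3. All 3 recovered libraries were above all watered ones. The log2 fold change without recovered 1 was 1.90 ± 0.44 (SE, adjusted p = 0.0518 by edgeR), and with recovered 1 it was 1.87 with an adjusted p of 0.029. Without recovered 2 it was 1.25, for recovered 3 alone against watered. The adjusted p by edgeR was 0.13 with intervein libraries alone and 0.201 with the 5 compared libraries. Drought had lowered OPR3 at T1, with a log2 fold change of -1.46 and an adjusted p of 0.0382. LOX1.1 (Solyc08g014000), a lipoxygenase, was at 0 in 4 of the 6 libraries. TD2 (Solyc09g008670), a threonine deaminase of the defence against herbivores, ranged from 33.7 to 534 CPM in watered plants and was at 1.03, 51.2 and 30.0 CPM in recovered 1, 2 and 3.

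Gast1 (Solyc02g089350), a gene induced by gibberellin, was at 315, 137 and 557 CPM in recovered 1, 2 and 3 and at 72.4, 34.4 and 103 CPM in watered 1, 2 and 3, without overlap (log2 fold change 2.31 ± 1.26, SE, adjusted p = 0.351 by edgeR, and 0.88 without recovered 3). It had been lowered by drought at T1 (log2 fold change -5.37, adjusted p = 0.0269). ACO1 (Solyc07g049530), which makes ethylene from its precursor, reached 1403 CPM in recovered 3 but was within the watered range of 118 to 549 CPM in recovered 1 and 2, at 423 and 490.5 CPM. ACS2 (Solyc01g095080), which makes that precursor, was under 5 CPM in all 6 libraries. SAM3 (Solyc09g008280), which supplies S-adenosylmethionine to that pathway, was at 1457, 755 and 314 CPM in recovered 1, 2 and 3 against 153 to 467 CPM in watered plants.

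PIP1-5 (Solyc08g081190), a water channel of the plasma membrane, was at 414, 195 and 377 CPM in recovered 1, 2 and 3 and at 376, 773 and 605 CPM in the watered libraries, with overlap. The defence genes PR-P2 (Solyc01g097240), CHI3 (Solyc02g082920), CHI9 (Solyc10g055810) and CHI17 (Solyc02g082930), of which the last 3 are chitinases, overlapped between the groups as well. CHI3 was the widest spread of these on the CPM scale, at 1121, 2374 and 467 CPM in watered 1, 2 and 3 and 542, 292 and 1006 CPM in recovered 1, 2 and 3.

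Whether vein tissue of the same leaves responded alike was looked at with vein recovered 1 and 3 against the 3 watered vein libraries. In vein, edgeR called 0 of 19893 genes (0%), with 2143 at an unadjusted p under 0.05. Of the 62 genes higher in recovered intervein, 61 had a vein log2 fold change above 0, with a median of 1.24, where 46.7% of all tested genes were above 0. Of the 53 lower genes 50 were below 0 in vein, with a median of -0.67, where 50.8% of all genes were below 0. Vein and intervein libraries came from the same plants per the protocol, so differences between plants can enter both. The difference between the responses of the tissues was tested directly, with 0 genes called by edgeR (0%) and 69 by DESeq2. At an unadjusted edgeR p under 0.05 there were 871. The fit had no term for the plant and so treated both tissues of a plant as independent. Leaving out a recovered library leaves a single one in its tissue, so no count is given for those settings.

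The watered plants were compared with T0 to see where the control level had itself moved. Between watered intervein at T2 and T0, 12 genes were called by edgeR (0.0603%), 2 higher at T2 (0.0101%) and 10 lower (0.0503%). Both comparisons use the watered T2 libraries, so values are given side by side. Solyc02g085480, described above, had a log2 fold change of 10.76 for recovered 2 and 3 over watered T2 and of -9.82 for watered T2 over T0, both of them fitted values against a group at 0 that depend on the prior count. For Solyc03g120980 the corresponding values were 4.63 and -3.12, the second with an adjusted p of 0.132. For Solyc02g063280 they were -3.71 and 0.04. The count of 12 was 232 without T0 watered 3, 0 without T0 watered 1 or 2 or T2 watered 3, and 4 without T2 watered 2.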

How the data were processed

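RNA of dissected leaf tissue was sequenced as single reads of 75 nt from stranded libraries, per the labels' protocols. The deposited counts are whole numbers per gene and library from a gene count matrix of the KBase platform, per the file headers, without normalization. The submitters' processing notes name HISAT2 2.1.0, StringTie 1.3.3b, FastQC 0.11.5 and DESeq2 1.20.0. The sources used here give no build, annotation, use of strand in counting or treatment of reads shared between genes, and overlapping, antisense and duplicated genes are therefore uncertain. The authors' own test columns for T1 were not used.

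The table held 35596 rows, 34429 of them tomato gene models and 1167 non-coding RNA models. None of the identifiers (0) is in the RefSeq table of assembly SLM_r2.1 with its 41476 genes. The names of 28 genes come from UniProt entries paired in the deposited table, the names themselves being general knowledge, so these genes support no conclusion. Pattern lists of pathways found 0 genes, as the files hold no descriptions. The members and lists were chosen with earlier results of these data known, and so was the choice of the 28 libraries that share the spread.

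Counts were fitted in R 4.3.3 with edgeR 4.0.16 (filterByExpr, TMM scaling, 1 coefficient per group, glmQLFit and glmQLFTest, two-sided), which kept 19893 rows with 18 residual degrees of freedom. Benjamini-Hochberg adjustment ran over all these rows. CPM use TMM-scaled sizes over all 30 libraries, with a prior count of 2 for log2 CPM. Each SE was derived from the log2 fold change and its F statistic. P-values measure the spread between libraries within groups, pooled over the 28 libraries of both tissues. Within a group these are separate plants, but vein and intervein libraries came from the same plants and were treated as independent. Floors of 3 counts cover counting error only. DESeq2 1.42.0, other library sets and scalings, and a replicate block were the alternatives. By the naming rule the text took the 2 highest and 2 lowest called genes with at least 1 CPM on average and no overlap, since identifiers lack names. The list of genes called between watered T2 and T0 was not used as a list, because it shares the watered libraries. The code was tested on simulated counts.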

Additional observations from a re-analysis of the deposited data

How the results depend on the processing

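The 115 calls became 189 with recovered 1, 47 with the library labelled vein T2 recovered 2, 10 with intervein libraries alone, 0 with the 5 compared libraries (2362 at an unadjusted p under 0.05), 0 with the 6 compared libraries (2249), 66 with the replicate block, 232 without intervein T1 drought 1 (chosen after seeing the data) and 1195 by DESeq2, which gave no adjusted p for 1581 genes. Of the 115, 64 were kept with the replicate block (Solyc04g049340, Solyc03g120980 and Solyc03g116380 were not, at adjusted p = 0.0737, 0.0542 and 0.056 by edgeR) and 112 with DESeq2 size factors. With 1 of the 5 compared libraries left out the count was 29 to 99. With 1 library of its own comparison left out the difference between tissues had 0 to 48 calls and watered T2 against T0 had 0 to 232. Replicate numbers did not pair recovered with watered intervein libraries (same-number correlations 0.11, -0.13 and 0.003). Whether they pair vein with intervein libraries was not tested. The difference between tissues had 69 calls by DESeq2. Watered T2 against T0 had 0 calls with intervein libraries alone, with all rows and with the replicate block, and 826 by DESeq2. The vein-preferred median was 1.07 with recovered 1, 0.79 with the 6 libraries and 1.04 with all 30, and the intervein-preferred median 0.15, 0.13 and 0.10. Signs turned for LOX1.1 (1.17 with recovered 1, 1.14 with all 30 libraries) and ACS2 (-1.35 with the block). With 1 library left out, log2 fold changes spanned -0.79 to 0.21 for Psy1, -3.19 to 0.61 for PR-P2, -0.87 to 1.20 for CHI9, -0.83 to 0.25 for CAB-10A, -1.79 to 0.19 for CHI17 and -6.13 to 2.23 for ACS2. The causes were not tested. Size factors, all rows, no non-coding RNA models, all 30 libraries and genes with counts in all 5 gave 123, 91, 114, 150 and 90 calls. Depth limits watered 1 most, with 2718799 counts.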
